A study of Mus musculus and Rattus norvegicus with 24 samples.

Results

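The effect of arterial occlusion at 6 h was compared between mouse and rat for every gene that both species' arrays name by the same symbol. Symbols were matched without regard to case, which gave 14204 genes of the 22180 measured in mouse and the 18166 measured in rat. For each gene the occlusion effect was the mean log2 expression in occluded animals minus that in sham animals, so that 1 unit is a factor of 2, and the species difference was the mouse effect minus the rat effect. A negative difference therefore means that the rat effect was the more positive.

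The whole series holds 24 arrays in 8 groups of 3 animals, of which the 12 arrays at 6 h are compared here. The 4 groups are male C57BL/6 mice of 8 to 10 weeks with a permanently blocked middle cerebral artery (pMCAO), mice of that strain, sex and age after sham surgery, male Sprague-Dawley rats of 8 to 12 weeks with pMCAO, and matching sham-operated rats. A filament passed up the internal carotid artery blocked the origin of the artery and stayed in place, on the right side in mice by the Koizumi method and on the left side in rats by the Longa method with a silicone-coated filament. Sham animals had the operation without the occlusion, and all animals had isoflurane. A 3 by 3 mm piece of penumbra, or of the matching ipsilateral area in sham animals, was taken from the brains of both species. Species, strain, side, surgical method and array design change together between the mouse and the rat groups, so their parts in a species difference cannot be told apart. Levels were not compared between species, only the pMCAO minus sham effects. The same symbol need not mark an orthologous gene, above all in gene families. The pieces are bulk tissue, in which fewer cells of a type and less RNA per cell cannot be told apart. Array medians lay between 5.92 and 5.96 on the log2 scale in mouse and between 5.82 and 5.87 in rat.

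The penumbra is the rim of tissue around an ischaemic core, in which blood flow is reduced but cells are still alive. Spreading depolarisations and calcium entry there switch on immediate early genes, which encode transcription factors such as Fos and Egr2 that need no new protein synthesis to be transcribed. Damaged cells and glia then release chemokines and cytokines through NF-kB signalling, while endothelial cells of the blood-brain barrier, which carry efflux pumps and tight junctions, react to the loss of flow.

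At 6 h the rat effects were spread more widely than the mouse effects, and the genes that responded in both species had, for the most part, the larger effect in rat. The standard deviation of the effect over the 14204 genes was 0.21 in mouse and 0.26 in rat. Genes past adjusted p 0.05 within a species numbered 1220 in mouse (527 up, 3.71%, and 693 down, 4.88%) and 1038 in rat (454 up, 3.2%, and 584 down, 4.11%). They shared 315 genes, which is 25.8% of the mouse calls and 30.3% of the rat calls. Of these, 156 were up in both, 159 were down in both and 0 had opposite signs. The rat effect was the larger in size in 120 of the 156 shared risers and in 121 of the 159 shared fallers. Median effects of the shared risers were 0.52 in mouse and 0.75 in rat, while the shared fallers had -0.35 in mouse and -0.44 in rat. Shared genes had to pass a threshold in each species. Over all matched genes the median standard error was 0.083 in mouse and 0.096 in rat. Passing thus mostly took a larger effect in rat, so part of the excess of larger rat effects was fixed by this choice. Over all matched genes the effects had a Pearson correlation of 0.50 and a Spearman correlation of 0.37, given as a description across genes, which are not independent.

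The species difference itself was called for 323 genes (2.27% of 14204; limma effects, adjusted p under 0.05 over all matched symbols), 154 above 0 (1.08%) and 169 below 0 (1.19%), against 2269 genes at an unadjusted p under 0.05. An effect called in 1 species and not in the other was seldom a called difference between them. Of 905 genes called in mouse and not in rat, 96 (10.6%) had a called difference, and for 462 the 95% interval of the difference lay within 0.5 either side of 0. Of 723 genes called in rat and not in mouse, 153 (21.2%) had a called difference, and for 190 the interval lay within those bounds. Over all 14204 matched genes the interval lay within them for 9934 (69.9%), a larger share than in either of these groups. The 323 genes thus comprised 96 with an effect called in mouse only, 153 called in rat only, 18 called in both species and 56 called in neither. With the effects of each species scaled to a common root mean square the order of the first 2 counts turned, to 127 called in mouse only and 102 in rat only. All 18 genes called in both had the larger effect in rat, 16 of them up and 2 down, under the same choice by a threshold in each species. The count of 323 was 141 without rat sham replicate 2, 184 without rat sham replicate 1 and 213 without mouse sham replicate 1, and 95 of the 323 genes were called whichever of the 12 arrays was left out.

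**Figure D1:**
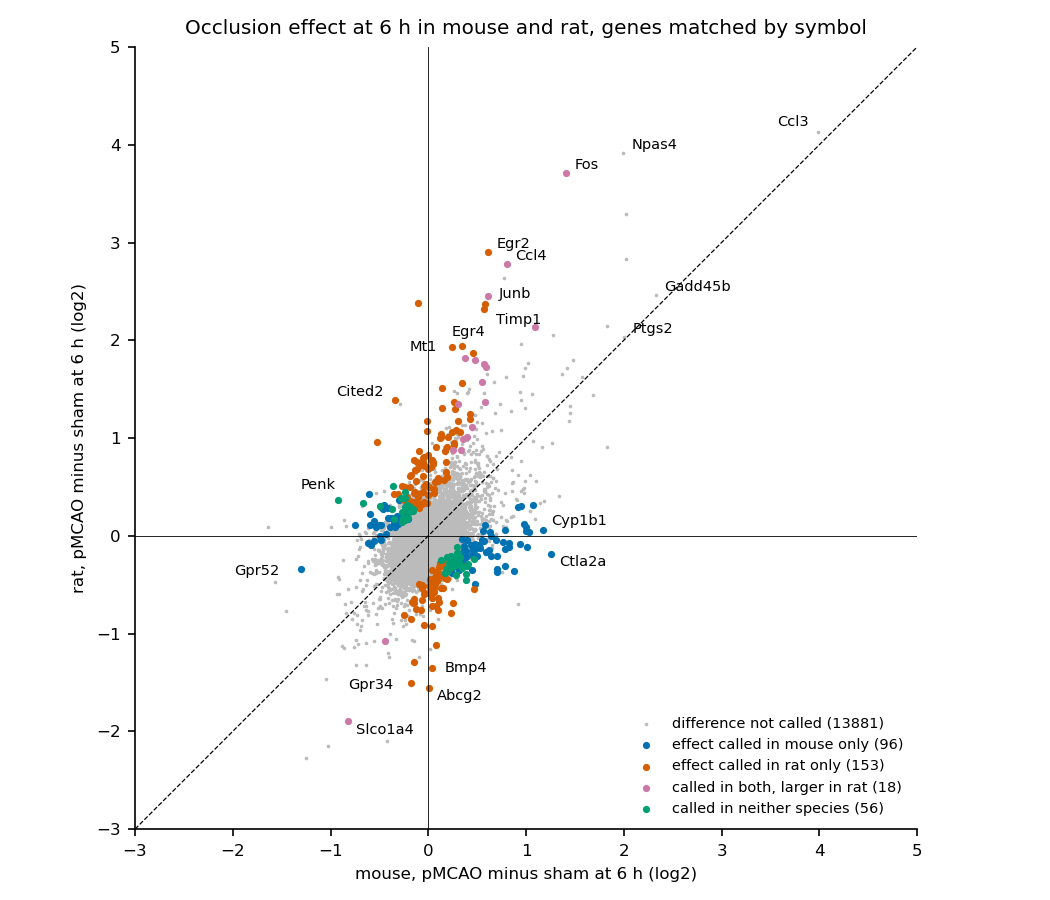
Occlusion effect of each matched gene at 6 h, pMCAO minus sham on the log2 scale, in mouse (x axis) and rat (y axis), coloured by where the effect and the species difference were called. Fos, Egr2, Ccl4 and Junb lie far above the dashed line of equal effects, Ccl3, Gadd45b and Ptgs2 lie near it, and Cyp1b1 and Ctla2a lie along the mouse axis.

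Many immediate early transcription factors rose in both species, and more of them in rat. Of 23 measured members, 10 were called up in mouse and 19 in rat, where 3.71% of all matched genes were called up in mouse and 3.2% in rat. Median effects were 0.55 in mouse and 1.16 in rat, against -0.02 in both species over all matched genes. The species difference was called for 7 members (Fos, Egr2, Junb, Nr4a1, Egr4, Ier5 and Jund), all below 0, where 1.19% of all genes were called below 0. Ier5 and Jund were named after their values were seen and lost their calls in at least 1 fit that left out 1 array. Mouse sham replicates 1 and 3 stood apart from the other mice in striatal markers, as described with those markers. With the striatal marker mean as a covariate the calls of Fos, Junb, Egr2, Egr4 and Nr4a1 were lost (adjusted p 0.0608 to 0.578), at differences of -1.96 for Fos, -1.60 for Junb, -1.92 for Egr2, -1.32 for Egr4 and -0.92 for Nr4a1. The background shares of called genes printed here and with the counts over all genes apply to each list that follows. Mouse promoters of 3 rat-larger risers are printed here to show the sequences that cAMP and calcium signalling are known to act on in such genes. They come from RefSeq on build GRCm38.p6 and run from 250 bases before to 50 after a transcription start. Capitals mark TGACG or its reverse complement CGTCA (the core of the cAMP response element), the full element TGACGTCA, the CArG box of serum response factor and the AP-1 motif TGANTCA, searched on both strands, with overlapping matches merged. The Fos window lies at chr12:85473640-85473939 on the plus strand, the Egr2 window at chr10:67537619-67537918 on the plus strand (the first of its 5 windows with a TGACG core), and the Ppp1r15a window at chr7:45526219-45526518 on the minus strand.
Fos: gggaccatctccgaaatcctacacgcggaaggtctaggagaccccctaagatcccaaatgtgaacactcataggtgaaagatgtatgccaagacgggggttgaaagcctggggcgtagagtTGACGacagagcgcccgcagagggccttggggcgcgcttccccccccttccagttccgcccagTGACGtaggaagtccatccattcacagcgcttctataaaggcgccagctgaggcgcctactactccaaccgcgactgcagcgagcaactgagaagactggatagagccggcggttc
Egr2: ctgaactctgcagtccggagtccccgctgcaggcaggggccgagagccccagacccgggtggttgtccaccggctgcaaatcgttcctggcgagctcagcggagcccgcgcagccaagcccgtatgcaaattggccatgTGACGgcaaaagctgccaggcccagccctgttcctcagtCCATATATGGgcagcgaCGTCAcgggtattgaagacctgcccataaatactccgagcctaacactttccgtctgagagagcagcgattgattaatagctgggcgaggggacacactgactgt
Ppp1r15a: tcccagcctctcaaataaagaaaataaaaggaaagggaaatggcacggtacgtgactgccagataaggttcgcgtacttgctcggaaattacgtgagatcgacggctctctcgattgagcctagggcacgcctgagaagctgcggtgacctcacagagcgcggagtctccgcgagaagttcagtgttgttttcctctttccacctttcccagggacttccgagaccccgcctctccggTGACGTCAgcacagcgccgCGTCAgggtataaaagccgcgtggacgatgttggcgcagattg
The full element stood in 7 of 86 genes that rose in rat with a called larger rat effect (8.14%), in 0 of 47 that rose in mouse only, in 5 of 108 that rose in both species without a called difference (4.63%) and in 3.04% of the 11193 matched symbols with a window. The TGACG core stood in 45.3% of the rat-larger risers, 31.9% of the mouse-only risers, 47.2% of the shared risers and 31.1% of all matched symbols. The AP-1 motif stood in 8.14%, 14.9%, 15.7% and 7.30% of these groups in the same order, and the CArG box in 4.65%, 0%, 4.63% and 1.59%. Among all 32851 windows of the same length, each counted once, the full element stood in 1.79% and the core in 20.8%. AP-1 stood in 7.81% and the CArG box in 1.63%. The shares of genes count a match in any window of the gene, so they are not like the shares of windows. A match is a description of these mouse letters and not evidence of binding. Rat promoters were not used here.

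Fos, whose product pairs with Jun proteins to form AP-1, had the widest gap among genes called in both species. In replicate order its log2 values were 8.19, 7.83 and 7.37 in mouse pMCAO, against 6.83, 5.96 and 6.36 in mouse sham. Rats had 11.17, 10.79 and 10.80 after pMCAO, against 7.40, 7.31 and 6.93 after sham surgery. Occluded animals lay above sham animals in both species, and the rat gap was much the wider. The effect was 1.41 ± 0.23 in mouse and 3.71 ± 0.34 in rat (SE), and the difference was -2.29 (-3.14 to -1.44, adjusted p = 0.00673). Junb, another AP-1 partner, had values of 8.03, 8.09 and 7.80 in mouse pMCAO, against 7.61, 7.09 and 7.38 in mouse sham. Rats had 8.84, 8.36 and 8.77 after pMCAO, against 6.59, 6.03 and 5.98 after sham surgery. Groups were separate in both species, with the wider gap in rat. Its effect was 0.61 ± 0.15 in mouse and 2.46 ± 0.29 in rat, and the difference was -1.84 (-2.53 to -1.16, adjusted p = 0.00851). Both calls held whichever array was left out.

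Egr2, a zinc finger factor induced by neuronal firing, had values of 8.40, 7.67 and 6.99 in mouse pMCAO, against 7.52, 6.72 and 6.99 in mouse sham. Rats had 8.77, 8.37 and 9.46 after pMCAO, against 6.44, 5.82 and 5.64 after sham surgery. Mouse pMCAO and sham animals overlapped, and rat pMCAO animals all lay above rat sham animals. The effect was 0.61 ± 0.32 in mouse and 2.90 ± 0.43 in rat, the mouse effect did not pass its test, and the difference was -2.29 (-3.39 to -1.19, adjusted p = 0.0249). The Egr2 call was lost without mouse pMCAO replicate 3, mouse sham replicate 1, rat pMCAO replicates 1 or 3 or rat sham replicates 2 or 3 (adjusted p 0.0518 to 0.0718). Egr4, of the same family, had values of 7.80, 7.45 and 6.94 in mouse pMCAO, against 7.24, 6.83 and 7.08 in mouse sham. Rats had 8.23, 7.59 and 8.52 after pMCAO, against 6.16, 6.11 and 6.25 after sham surgery. Its groups again overlapped in mouse and were separate in rat. The difference of -1.59 (-2.21 to -0.98, adjusted p = 0.00732) held whichever array was left out. Nr4a1, an orphan nuclear receptor of the same early wave, had values of 10.43, 10.11 and 9.29 in mouse pMCAO, against 9.86, 8.56 and 9.66 in mouse sham. Rats had 11.39, 10.79 and 11.08 after pMCAO, against 9.07, 8.70 and 8.38 after sham surgery. Mouse sham replicates 1 and 3 lay above mouse pMCAO replicate 3, so the mouse groups overlapped. The difference was -1.79 (-2.74 to -0.83, adjusted p = 0.0392), and was lost without mouse pMCAO replicates 2 or 3, mouse sham replicates 1 or 3, rat pMCAO replicates 1 or 3 or rat sham replicates 2 or 3 (adjusted p 0.0537 to 0.116).

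Other members of the early wave rose in both species without a called difference. Jun, the other core AP-1 subunit, had effects of 1.42 in mouse and 1.72 in rat, with a 95% interval of the difference of -0.63 to 0.04. A second rat transcript cluster of Jun had an effect of 0.95, below the mouse effect, so the sign of the Jun difference depends on the cluster. Atf3, a stress-induced partner of Jun, had 1.48 in mouse and 1.80 in rat (-0.79 to 0.15). Fosb, a Fos paralogue, had 2.02 in mouse and 2.83 in rat (-1.52 to -0.10, adjusted p = 0.242). Npas4, which is induced by calcium entry in neurons, had 2.00 in mouse and 3.91 in rat (-3.49 to -0.34, adjusted p = 0.21). The intervals of Fosb and Npas4 lie wholly below 0, but neither difference passed the adjustment over all genes. Those of Jun and Atf3 include 0 and reach below -0.5.

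Effectors of neuronal activity showed the same order of medians. Of 22 measured members 11 were called up in mouse and 20 in rat (3.71% and 3.2% of all genes), with medians of 0.53 in mouse and 1.17 in rat, and 3 differences were called, all below 0. Crem, a cAMP-responsive modulator that includes the repressor ICER, had values of 6.13, 6.25 and 6.33 in mouse pMCAO, against 6.21, 6.04 and 6.22 in mouse sham. Rats had 7.29, 7.22 and 7.40 after pMCAO, against 6.55, 6.36 and 6.26 after sham surgery. The mouse groups overlapped, and every rat pMCAO animal lay above every rat sham animal. Its effect was 0.08 ± 0.07 in mouse and 0.91 ± 0.10 in rat, with a difference of -0.83 (-1.09 to -0.58, adjusted p = 0.00129). Sik1, a kinase that restrains CREB coactivators, had effects of 0.59 ± 0.16 in mouse and 1.73 ± 0.21 in rat and a difference of -1.14 (-1.68 to -0.59, adjusted p = 0.0242), lost without mouse sham replicate 1, rat pMCAO replicates 1 or 3 or rat sham replicate 2 (adjusted p 0.0588 to 0.0829). Vgf, a secreted neuropeptide precursor, had effects of 0.24 ± 0.09 in mouse and 1.07 ± 0.17 in rat and a difference of -0.82 (-1.23 to -0.42, adjusted p = 0.0291), lost without mouse sham replicate 1, rat pMCAO replicate 1 or rat sham replicates 1, 2 or 3 (adjusted p 0.0579 to 0.0811). By contrast Gadd45b, a stress-inducible regulator of MAP kinase signalling and DNA demethylation, had values of 8.86, 9.08 and 9.49 in mouse pMCAO, against 7.03, 6.74 and 6.68 in mouse sham. Rats had 8.83, 8.40 and 9.30 after pMCAO, against 6.47, 6.35 and 6.33 after sham surgery. These groups were separate by a like margin in both species, with effects of 2.33 in mouse and 2.46 in rat and an interval of the difference of -0.63 to 0.36. Its paralogue Gadd45g had 2.02 in mouse and 3.29 in rat (-2.13 to -0.40, adjusted p = 0.125), and the synaptic pentraxin Nptx2 had 1.83 in mouse and 2.14 in rat (-1.16 to 0.52).

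**Figure D2:**
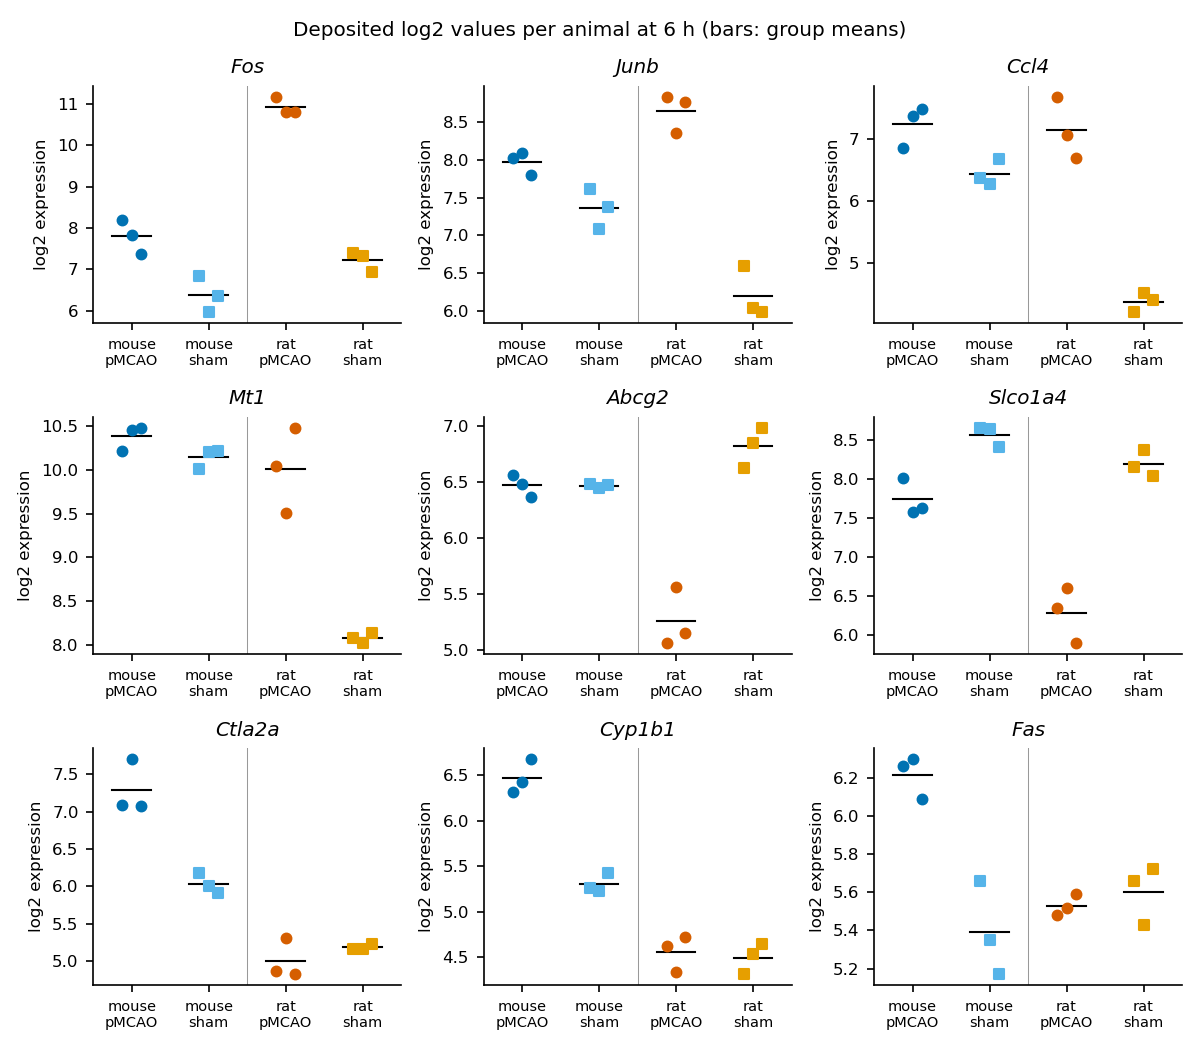
Deposited log2 expression of 9 genes in each animal at 6 h (points, 3 per group) with group means (black bars); mouse panels left of the grey line, rat right, with a separate y axis per gene. Fos, Junb and Ccl4 separate pMCAO from sham in both species by more in rat, Mt1 and Abcg2 do so in rat, and Ctla2a, Cyp1b1 and Fas do so in mouse.

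Among inflammatory genes the species shared the strongest chemokine response and differed in a neighbouring chemokine. Ccl3 (MIP-1 alpha), which draws monocytes and neutrophils, had values of 8.71, 9.94 and 10.17 in mouse pMCAO, against 5.48, 5.70 and 5.67 in mouse sham. Rats had 9.31, 8.51 and 8.44 after pMCAO, against 4.39, 4.72 and 4.77 after sham surgery. Both species had a wide gap between occluded and sham animals, with effects of 3.99 ± 0.36 in mouse and 4.13 ± 0.37 in rat and an interval of the difference of -1.19 to 0.92. Ccl4 (MIP-1 beta), its close relative, had values of 6.87, 7.38 and 7.50 in mouse pMCAO, against 6.38, 6.28 and 6.69 in mouse sham. Rats had 7.69, 7.08 and 6.70 after pMCAO, against 4.21, 4.52 and 4.41 after sham surgery. Groups were separate in both species, by more in rat, with effects of 0.80 ± 0.16 in mouse and 2.78 ± 0.22 in rat and a difference of -1.98 (-2.54 to -1.41, adjusted p = 0.00051) that held whichever array was left out. Of 22 measured chemokines, 6 were called up in mouse and 7 in rat (3.71% and 3.2% of all genes), and 1 difference was called in each direction (1.08% of all genes above 0 and 1.19% below). The one above 0 was Ccl12, a monocyte chemoattractant, with values of 4.88, 4.60 and 4.83 in mouse pMCAO, against 4.25, 4.11 and 4.09 in mouse sham. Rats had 3.56, 3.69 and 3.62 after pMCAO, against 3.67, 3.88 and 3.76 after sham surgery. Mouse groups were separate and rat groups overlapped, and the difference was 0.77 (0.46 to 1.07, adjusted p = 0.00876). These rat values all lay below the lower quartile of the rat arrays at 6 h (4.54 to 4.62). Whether the rat probes could show a change at that level was not tested. Ccl12 belongs to a cluster of related genes that differs between rodents, so the matched symbol may not mark the same gene.

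The list that joins NF-kB feedback with adhesion and innate sensing held 5 genes with larger effects in rat, of which Nfkbia and Birc3 are NF-kB feedback genes and the others have other roles. Of 25 measured members, 6 were called up in mouse and 11 in rat (3.71% and 3.2% of all genes), and 5 differences were called, all below 0 (medians 0.23 in mouse and 0.35 in rat). Besides the 4 described next, this was Rel, an NF-kB subunit, named after its values were seen, with 0.58 ± 0.14 in mouse and 1.37 ± 0.13 in rat and -0.79 (-1.20 to -0.39, adjusted p = 0.0294), a call that did not hold in every fit that left out 1 array. Nfkbia, which encodes the inhibitor IkB alpha, had values of 7.53, 7.84 and 7.65 in mouse pMCAO, against 7.39, 7.29 and 7.42 in mouse sham. Rats had 9.21, 8.90 and 9.16 after pMCAO, against 7.98, 7.76 and 8.02 after sham surgery. Pairs of groups were separate in both species, by less in mouse, where the effect of 0.31 did not pass its test. Its difference was -0.86 (-1.29 to -0.44, adjusted p = 0.0269) and was lost without rat pMCAO replicates 1 or 3 or rat sham replicates 1 or 2 (adjusted p 0.0587 to 0.091). Ptges, which makes prostaglandin E2, had effects of 0.27 ± 0.08 in mouse and 1.30 ± 0.19 in rat and a difference of -1.03 (-1.45 to -0.60, adjusted p = 0.0163), lost without rat pMCAO replicate 1 or rat sham replicate 2 (adjusted p 0.0514 to 0.0562). Socs3, an inhibitor of JAK-STAT signalling, had 0.26 ± 0.10 in mouse and 1.37 ± 0.24 in rat and -1.11 (-1.67 to -0.55, adjusted p = 0.0375), and its call was lost in fits without any of 7 of 12 arrays (adjusted p 0.0502 to 0.108). Birc3, an inhibitor of apoptosis induced by NF-kB, had 0.29 ± 0.11 in mouse and 1.08 ± 0.17 in rat and -0.80 (-1.21 to -0.38, adjusted p = 0.0372), lost in fits without any of 7 of 12 arrays (adjusted p 0.0603 to 0.117). Ptgs2, the inducible cyclooxygenase upstream of Ptges, rose in both, with 2.00 in mouse and 2.03 in rat (-0.85 to 0.79). The wide intervals of Ccl3 and Ptgs2 bound their differences only loosely. Of 20 measured cytokines the difference was called for Il18, a cytokine released by inflammasomes, with values of 7.73, 7.91 and 7.88 in mouse pMCAO, against 7.82, 8.07 and 7.98 in mouse sham. Rats had 6.24, 5.87 and 6.12 after pMCAO, against 5.29, 5.60 and 5.08 after sham surgery. Rat groups were separate and mouse groups overlapped, giving -0.87 (-1.23 to -0.51, adjusted p = 0.0141). Of 19 interferon-response genes the difference was called for Irf7, the master regulator of type I interferon, with effects of 0.35 ± 0.06 in mouse and -0.19 ± 0.09 in rat and a difference of 0.53 (0.30 to 0.76, adjusted p = 0.0158), lost without rat sham replicates 1 or 2 (adjusted p 0.0501 to 0.052). The mean of 11 neutrophil markers was higher in occluded animals of both species. It was 5.26, 5.40 and 5.23 in mouse pMCAO, against 5.13, 5.13 and 5.12 in mouse sham, and in rats it was 4.96, 5.19 and 4.93 after pMCAO, against 4.61, 4.59 and 4.75 after sham surgery. Of these markers 1 was called up in mouse and 2 in rat, 0 differences were called, and the defining markers Mpo and Elane had effects between -0.12 and 0.20. Their part in the inflammatory differences was not tested.

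Proteases and growth factors that act outside the cell had larger effects in rat for some members and not for others. Of 23 measured genes of matrix, fibrinolysis and vascular growth 9 were called up in each species (3.71% of all genes in mouse and 3.2% in rat), while 5 differences were called below 0 (Plat, Timp1, Hbegf, Adamts9 and Vgf, the last a neuropeptide precursor rather than a vascular growth factor) and 1 above. Plat, the tissue plasminogen activator that starts fibrinolysis, had values of 8.37, 8.58 and 8.37 in mouse pMCAO, against 8.03, 7.93 and 7.93 in mouse sham. Rats had 10.54, 10.53 and 10.24 after pMCAO, against 8.78, 8.54 and 8.60 after sham surgery. Occluded and sham animals were separate in both species, narrowly in mouse and widely in rat. Its effect was 0.48 ± 0.09 in mouse and 1.80 ± 0.12 in rat, with a difference of -1.32 (-1.63 to -1.01, adjusted p = 8.55e-05). Timp1, an inhibitor of metalloproteinases made by reactive astrocytes and other cells, had values of 5.16, 5.82 and 5.33 in mouse pMCAO, against 4.95, 5.02 and 4.64 in mouse sham. Rats had 9.07, 7.78 and 8.53 after pMCAO, against 5.98, 6.46 and 5.99 after sham surgery. Groups were separate in both species, and the mouse effect missed its threshold (adjusted p = 0.0567). The effect was 0.57 ± 0.16 in mouse and 2.32 ± 0.25 in rat and the difference -1.75 (-2.37 to -1.13, adjusted p = 0.00532). Hbegf, a membrane-shed ligand of the EGF receptor, had effects of 0.55 ± 0.09 in mouse and 1.57 ± 0.15 in rat and a difference of -1.02 (-1.39 to -0.65, adjusted p = 0.00673). Adamts9, a versican-cleaving protease, had 1.09 ± 0.12 in mouse and 2.14 ± 0.18 in rat and -1.05 (-1.50 to -0.60, adjusted p = 0.0141), lost without rat sham replicate 2 (adjusted p = 0.0511). The calls of Plat, Timp1 and Hbegf held whichever array was left out. Ccn1, an integrin-binding matricellular protein, rose in both species, by 1.57 in mouse and 1.63 in rat (-0.52 to 0.42). Outside the list, Fgl2, a membrane prothrombinase, had 0.38 ± 0.09 in mouse and 1.82 ± 0.32 in rat and -1.44 (-2.15 to -0.72, adjusted p = 0.038), lost without mouse sham replicate 1, rat pMCAO replicates 1 or 3 or rat sham replicates 1, 2 or 3 (adjusted p 0.0515 to 0.126).

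Of 17 heat shock genes 8 rose in each species, where 3.71% of all genes were called up in mouse and 3.2% in rat, and the other 9 did not pass the test. The list had medians of 0.38 in mouse and 0.33 in rat. Hsph1, an Hsp110 chaperone, had effects of 1.07 in mouse and 0.97 in rat with an interval of the difference of -0.25 to 0.44, and the co-chaperone Dnajb1 had 1.45 in mouse and 1.26 in rat (-0.44 to 0.82). The 1 called difference on the list was that of Dnajb4, a member of the Hsp40 family, with values of 7.45, 7.50 and 7.42 in mouse pMCAO, against 7.46, 7.36 and 7.56 in mouse sham. Rats had 9.29, 9.14 and 9.38 after pMCAO, against 8.24, 8.57 and 8.51 after sham surgery. Mouse groups overlapped and rat groups were separate, giving -0.83 (-1.12 to -0.54, adjusted p = 0.00581). Ppp1r15a (GADD34), which lets translation resume after the integrated stress response and whose promoter is printed above, had values of 6.63, 6.70 and 6.93 in mouse pMCAO, against 6.37, 6.42 and 6.55 in mouse sham. Rats had 7.94, 7.47 and 7.57 after pMCAO, against 6.22, 6.40 and 6.33 after sham surgery. Groups were separate in both species, narrowly in mouse. Its effect was 0.31 ± 0.08 in mouse and 1.34 ± 0.13 in rat, with a difference of -1.04 (-1.36 to -0.72, adjusted p = 0.00146), where 7 of 18 members of the stress-response list were called up in mouse and 6 in rat, and this was its 1 called difference.

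Mt1, a zinc-binding metallothionein that is induced by metals, glucocorticoids and hypoxia, had values of 10.21, 10.46 and 10.48 in mouse pMCAO, against 10.01, 10.20 and 10.22 in mouse sham. Rats had 10.04, 9.51 and 10.48 after pMCAO, against 8.08, 8.02 and 8.14 after sham surgery. Mouse groups overlapped, and rat pMCAO animals lay well above rat sham animals. The effect was 0.24 ± 0.09 in mouse and 1.93 ± 0.18 in rat and the difference -1.69 (-2.12 to -1.26, adjusted p = 0.000418). Dusp1 and Per1, also on the glucocorticoid-responsive list, had effects of 0.26 in mouse and 1.48 in rat and of 0.17 in mouse and 0.85 in rat, neither with a called difference. Of 17 measured members of that list, 6 were called up in mouse and 8 in rat (3.71% and 3.2% of all genes). Called or not, the difference was above 0 for 5 members and below 0 for 12, and 2 differences below 0 were called. Cited2, a competitor of HIF-1 for the coactivator p300, had values of 8.78, 8.91 and 8.70 in mouse pMCAO, against 9.29, 9.14 and 8.99 in mouse sham. Rats had 9.99, 9.67 and 10.08 after pMCAO, against 8.62, 8.52 and 8.43 after sham surgery. The signs were opposite, with occluded mice all below sham mice and occluded rats all above sham rats, and the mouse effect did not pass its test. Its effect was -0.34 ± 0.12 in mouse and 1.39 ± 0.18 in rat and its difference -1.73 (-2.18 to -1.28, adjusted p = 0.000257). Hypoxia and glycolysis genes as a list gave 7 of 20 called up in mouse and 9 in rat (3.71% and 3.2% of all genes), with 0 called differences and medians of 0.27 in mouse and 0.33 in rat. Gclm, the modifier subunit of the enzyme that limits glutathione synthesis, had -0.04 ± 0.06 in mouse and -0.60 ± 0.11 in rat and a difference of 0.55 (0.28 to 0.82, adjusted p = 0.0284), lost in fits without any of 6 of 12 arrays (adjusted p 0.051 to 0.093). The calls of Mt1, Cited2, Dnajb4 and Ppp1r15a held whichever array was left out.

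Several transporters and junction genes of the blood-brain barrier fell by more in rat. Of 21 measured members 4 were called down in mouse and 7 in rat, and 4 differences were called, all above 0, where 1.08% of all genes were called above 0. Abcg2 (BCRP), a drug efflux pump of brain capillaries, had values of 6.56, 6.48 and 6.36 in mouse pMCAO, against 6.48, 6.44 and 6.47 in mouse sham. Rats had 5.06, 5.56 and 5.15 after pMCAO, against 6.62, 6.84 and 6.98 after sham surgery. Mouse groups overlapped closely, and occluded rats lay far below sham rats. Its effect was 0.00 ± 0.06 in mouse and -1.56 ± 0.23 in rat, with a difference of 1.56 (1.05 to 2.07, adjusted p = 0.00673). Slco1a4, an organic anion transporter of brain endothelium, had values of 8.01, 7.58 and 7.63 in mouse pMCAO, against 8.65, 8.63 and 8.41 in mouse sham. Rats had 6.35, 6.61 and 5.90 after pMCAO, against 8.15, 8.37 and 8.03 after sham surgery. Occluded animals lay below sham animals in both species, by more in rat, with effects of -0.82 ± 0.11 in mouse and -1.90 ± 0.17 in rat and a difference of 1.07 (0.66 to 1.48, adjusted p = 0.00851). Both calls held whichever array was left out. Abcb1a, one of the P-glycoprotein genes, had values of 7.31, 7.28 and 6.99 in mouse pMCAO, against 7.60, 7.82 and 7.49 in mouse sham. Rats had 7.16, 7.45 and 7.20 after pMCAO, against 8.48, 8.44 and 8.12 after sham surgery. It fell in both species, and the difference of 0.63 (0.32 to 0.94, adjusted p = 0.0252) was lost in fits without any of 8 of 12 arrays (adjusted p 0.0536 to 0.0775). Ocln, which encodes the tight junction protein occludin, had effects of -0.05 ± 0.13 in mouse and -0.92 ± 0.15 in rat and a difference of 0.87 (0.46 to 1.28, adjusted p = 0.0214), lost without rat pMCAO replicate 3 or rat sham replicates 1 or 2 (adjusted p 0.0524 to 0.0669).

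Other vessel genes varied. The lactate carrier Slc16a1 rose in both, by 0.85 in mouse and 0.81 in rat (-0.33 to 0.42), and Cldn5, the main claudin of brain endothelium, had effects of -0.18 in mouse and -0.27 in rat, called in neither species. Emcn, an endothelial sialomucin, had effects of 0.08 ± 0.12 in mouse and -0.71 ± 0.14 in rat and a difference of 0.79 (0.41 to 1.17, adjusted p = 0.0252), lost without mouse sham replicate 3, rat pMCAO replicate 3 or rat sham replicates 1 or 2 (adjusted p 0.0524 to 0.084). The mean of 10 endothelial markers was 6.80, 6.69 and 6.56 in mouse pMCAO, against 6.88, 6.82 and 6.69 in mouse sham, and 6.68, 6.43 and 6.36 in rat pMCAO, against 6.98, 6.88 and 6.66 in rat sham. Rat groups overlapped narrowly on this mean, and its part in the transporter differences was not tested.

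Some markers of resting microglia fell in both species, with 1 called difference. Gpr34, a lysophosphatidylserine receptor of microglia, had values of 5.81, 5.76 and 5.72 in mouse pMCAO, against 5.68, 6.04 and 6.11 in mouse sham. Rats had 5.79, 6.40 and 5.63 after pMCAO, against 7.51, 7.54 and 7.28 after sham surgery. Occluded rats all lay below sham rats, while mouse groups overlapped. The effect was -0.18 ± 0.13 in mouse and -1.50 ± 0.18 in rat, with a difference of 1.32 (0.86 to 1.79, adjusted p = 0.00455). P2ry12, the ADP receptor of resting microglia, fell in both species, with effects of -0.78 in mouse and -0.85 in rat (-0.46 to 0.59), and 4 of 14 homeostatic microglial genes were called down in mouse and 7 in rat (4.88% and 4.11% of all genes). Bmp4, a morphogen expressed by oligodendrocyte precursors among other cells, had values of 6.63, 6.70 and 6.90 in mouse pMCAO, against 6.67, 6.73 and 6.72 in mouse sham. Rats had 5.85, 6.80 and 6.47 after pMCAO, against 7.88, 7.80 and 7.49 after sham surgery. Rat groups were separate, with occluded rats lower, and mouse groups overlapped. Its effect was 0.04 ± 0.08 in mouse and -1.35 ± 0.24 in rat, with a difference of 1.39 (0.84 to 1.93, adjusted p = 0.0136), while 0 of the other 7 precursor markers had a called difference. Both calls held whichever array was left out.

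The 96 genes called in mouse only comprised 61 that rose and 35 that fell, and in 67 the rat effect had an unadjusted p over 0.05. In 77 of the 96 the 2 effects had opposite signs. A rat effect of the same sign with an unadjusted p under 0.05 was seen in 4. Ctla2a, which encodes a cysteine protease inhibitor homologous to a cathepsin propeptide, had the largest difference. Its values were 7.09, 7.71 and 7.07 in mouse pMCAO, against 6.18, 6.01 and 5.91 in mouse sham. Rats had 4.87, 5.31 and 4.82 after pMCAO, against 5.16, 5.16 and 5.23 after sham surgery. Occluded mice lay well above every sham mouse and rat groups overlapped, giving effects of 1.26 ± 0.17 in mouse and -0.18 ± 0.12 in rat and a difference of 1.44 (1.00 to 1.88, adjusted p = 0.00129). Cyp1b1, a cytochrome P450 of vessels and pericytes that is a target of the aryl hydrocarbon receptor, had values of 6.31, 6.43 and 6.68 in mouse pMCAO, against 5.26, 5.23 and 5.42 in mouse sham. Rats had 4.62, 4.33 and 4.72 after pMCAO, against 4.31, 4.53 and 4.64 after sham surgery. Again mouse groups were separate and rat groups overlapped. The effects were 1.17 ± 0.11 in mouse and 0.06 ± 0.14 in rat, and the difference was 1.11 (0.74 to 1.47, adjusted p = 0.00234). Rat Cyp1b1 values lay near the lower quartile of the rat arrays at 6 h (4.54 to 4.62). Whether the rat probes could show a change at that level was not tested. Fas, the death receptor and a p53 target, had values of 6.26, 6.30 and 6.09 in mouse pMCAO, against 5.66, 5.35 and 5.17 in mouse sham. Rats had 5.48, 5.52 and 5.59 after pMCAO, against 5.66, 5.43 and 5.72 after sham surgery. Its effect was 0.82 ± 0.11 in mouse and -0.07 ± 0.10 in rat and its difference 0.90 (0.59 to 1.20, adjusted p = 0.00315), the 1 called difference among 21 genes of the apoptosis and p53 list. Another p53 target, Cdkn1a, rose in both species, by 1.27 in mouse and 0.95 in rat (-0.15 to 0.78). The calls of Ctla2a, Cyp1b1 and Fas held whichever array was left out.

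Of the other mouse-only genes named, most rose. Lyzl4, a lysozyme-like protein known from sperm, had a difference of 1.24 (0.78 to 1.70, adjusted p = 0.00646), and Adcy10, the soluble bicarbonate-sensing adenylyl cyclase, one of 1.12 (0.71 to 1.53, adjusted p = 0.00911). Adcy10 values were 5.79, 5.23 and 4.88 in mouse pMCAO, against 4.37, 4.18 and 4.32 in mouse sham. Rats had 5.32, 5.34 and 5.48 after pMCAO, against 5.56, 5.42 and 5.49 after sham surgery. Mouse groups were thus separate and rat groups overlapped. Col10a1, a collagen known from hypertrophic cartilage, had a difference of 1.05 (0.65 to 1.45, adjusted p = 0.00732), and Clhc1 one of 1.02 (0.57 to 1.47, adjusted p = 0.0164). These 4 calls held whichever array was left out. A2m, a broad protease inhibitor of plasma and astrocytes, had 1.09 (0.57 to 1.61, adjusted p = 0.0255), lost without mouse pMCAO replicates 1 or 3, mouse sham replicates 1, 2 or 3 or rat sham replicate 1 (adjusted p 0.0521 to 0.0821). Klra2, a Ly49 receptor of natural killer cells, had 1.07 (0.61 to 1.54, adjusted p = 0.0147), lost without rat sham replicate 2 (adjusted p = 0.0511). A2m and Klra2 belong to families that differ between rodents, so their symbol match is uncertain. In some of these genes a negative rat effect, not called, made up part of the difference. Effects were 0.87 in mouse and -0.36 in rat for Lyzl4, and 0.71 in mouse and -0.34 in rat for Col10a1. They were 0.78 in mouse and -0.31 in rat for A2m, and 0.70 in mouse and -0.37 in rat for Klra2. Rat means of Clhc1 were 3.97 after pMCAO and 4.05 after sham surgery, and those of Klra2 were 2.94 and 3.32. They lay below the lower quartile of the rat arrays at 6 h (4.54 to 4.62). Sertm1 had 0.99 (0.47 to 1.51, adjusted p = 0.0386), lost in fits without any of 8 of 12 arrays (adjusted p 0.0533 to 0.114), and Pld5, an inactive relative of phospholipase D, fell by 0.60 in mouse, with a difference of -1.03 (-1.57 to -0.50, adjusted p = 0.0358) lost in fits without any of 9 of 12 arrays (adjusted p 0.0567 to 0.0983). Mmp12, a macrophage elastase, had effects of 0.95 ± 0.11 in mouse and 0.31 ± 0.10 in rat and a difference of 0.65 (0.34 to 0.95, adjusted p = 0.0214), the 1 matrix-list difference above 0. Mmp12 was named after its values were seen, and its call did not hold in every fit that left out 1 array.

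**Figure D3:**
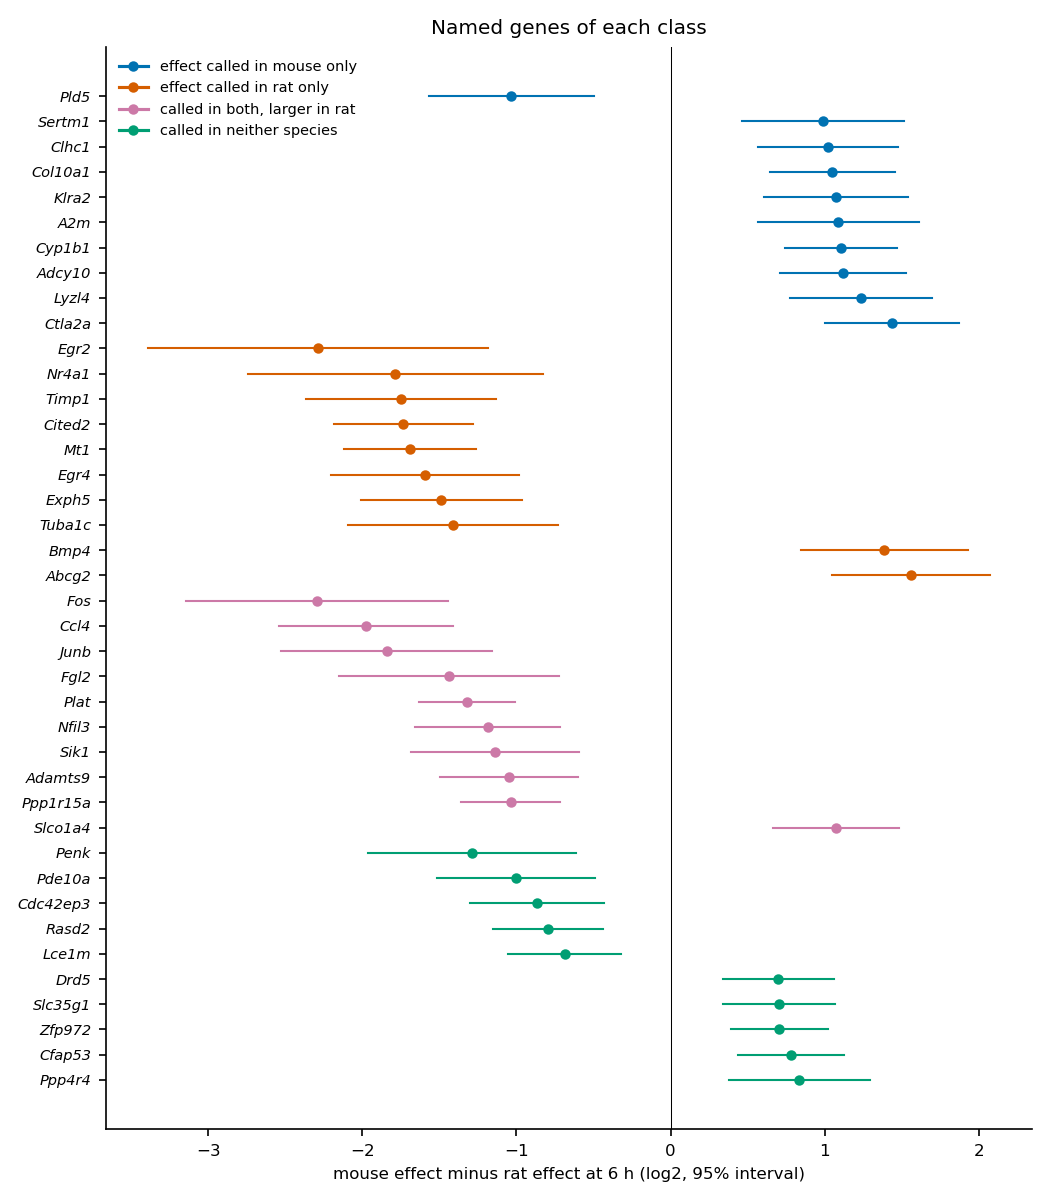
Mouse effect minus rat effect at 6 h (log2, points) with 95% intervals (lines) for the 40 genes with the largest called differences under the naming rule, 10 from each group of calls. Points left of 0 had the more positive effect in rat, and Egr2 and Fos, near -2.29, lie farthest from 0.

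Of 12 striatal neuron markers, 5 were called down in mouse and 0 up, 1 was called down in rat (4.88% of all genes down in mouse and 4.11% in rat), and the medians were -0.73 in mouse and 0.04 in rat. Differences were called for 4 of them, all below 0. Penk, the enkephalin precursor of striatal projection neurons, had values of 9.29, 9.11 and 9.07 in mouse pMCAO, against 10.35, 9.26 and 10.62 in mouse sham. Rats had 8.72, 8.65 and 8.97 after pMCAO, against 8.48, 8.30 and 8.45 after sham surgery. Mouse sham replicate 2 lay among the occluded mice, and the other sham mice lay well above them. Its effect was -0.92 ± 0.29 in mouse and 0.37 ± 0.14 in rat, called in neither species, and the difference was -1.29 (-1.96 to -0.62, adjusted p = 0.0422), lost without mouse pMCAO replicates 1, 2 or 3, mouse sham replicates 1 or 3, rat pMCAO replicates 1 or 3 or rat sham replicates 1, 2 or 3 (adjusted p 0.0511 to 0.133). Pde10a, a phosphodiesterase abundant in striatum, had a difference of -1.003 (-1.51 to -0.49, adjusted p = 0.0364). Its mouse sham values of 9.11, 8.25 and 9.28 split the sham mice in the same way. The Pde10a call was lost in fits without any of 9 of 12 arrays (adjusted p 0.0526 to 0.123). Tac1, the substance P precursor, had effects of -0.75 ± 0.18 in mouse and 0.11 ± 0.08 in rat and a difference of -0.86 (-1.28 to -0.44, adjusted p = 0.0337), lost without mouse pMCAO replicates 2 or 3, mouse sham replicates 1 or 3 or rat sham replicate 2 (adjusted p 0.0562 to 0.112). Gpr52, a striatal orphan receptor, had -1.30 ± 0.19 in mouse and -0.34 ± 0.10 in rat and a difference of -0.97 (-1.42 to -0.52, adjusted p = 0.025), which did not hold in every fit that left out 1 array. Drd2, the D2 dopamine receptor, had -1.64 ± 0.41 in mouse and 0.09 ± 0.13 in rat without a called difference (adjusted p = 0.0541). Gpr52 and Drd2 were named after their values were seen.

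The mean of the 12 striatal markers was 6.67, 6.54 and 6.50 in mouse pMCAO, against 7.55, 6.79 and 7.80 in mouse sham, and 6.16, 6.12 and 6.11 in rat pMCAO, against 6.15, 6.13 and 6.19 in rat sham. Mouse sham replicates 1 and 3 thus stood apart from the other 4 mice, and the 6 rats hardly varied. A covariate was made from the mean of all list members on each species' own arrays, which can include members without a match. With it in each species, called differences numbered 28 in place of 323. Called mouse effects numbered 33 in place of 1220, and called rat effects 859 in place of 1038. Penk, Pde10a and Tac1 are themselves members of that mean, so a smaller difference for them was partly fixed in advance. In that fit Penk had a difference of -0.20 (adjusted p = 0.739), Pde10a one of -0.19 (adjusted p = 0.753) and Tac1 one of -0.18 (adjusted p = 0.720). Many other lost calls kept much of their size, with differences of -1.96 for Fos, -1.60 for Junb, -1.40 for Exph5 and 1.35 for Ctla2a. Of the 56 named genes that lost their call, 47 kept at least 75% of their difference, and the median share kept was 93.3%. Among genes that are not members of the mean, smaller shares were kept by Rasd2 (42%), Nr4a1 (51%) and Sertm1 (63%). The same held for Zfp972 (64%), Sik1 (72%) and Pld5 (72%). The cause of these changes was not tested. Abcg2, Ccl4, Cited2, Col10a1, Crem, Cyp1b1, Il18, Mt1, Plat, Ppp1r15a and Timp1 kept their calls, 11 of the 67 named genes with a called difference, and 0 of the 67 reversed.

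Of 27 voltage-gated and inward-rectifier channel genes 8 were called down in mouse and 1 in rat, where 4.88% of all genes were called down in mouse and 4.11% in rat. The difference between these counts was not tested. The list had medians of -0.14 in mouse and -0.02 in rat, and 3 differences were called, all below 0. Kcnc2, a fast-gating potassium channel of interneurons, had values of 7.94, 7.76 and 7.93 in mouse pMCAO, against 8.30, 8.35 and 8.27 in mouse sham. Rats had 9.32, 9.31 and 9.35 after pMCAO, against 9.31, 9.28 and 9.35 after sham surgery. Occluded mice were all below sham mice and rat groups overlapped closely, giving -0.44 (-0.65 to -0.24, adjusted p = 0.0214), lost without rat sham replicate 2 (adjusted p = 0.0562). Scn1a, the sodium channel of fast-spiking interneurons, had effects of -0.61 ± 0.09 in mouse and -0.07 ± 0.11 in rat and a difference of -0.54 (-0.84 to -0.25, adjusted p = 0.0438), lost in fits without any of 9 of 12 arrays (adjusted p 0.0549 to 0.116). Pvalb, the calcium buffer that marks many such cells, had values of 7.10, 7.23 and 7.24 in mouse pMCAO, against 7.56, 7.52 and 7.51 in mouse sham. Rats had 8.24, 8.37 and 8.29 after pMCAO, against 8.17, 8.18 and 8.21 after sham surgery. It fell in mouse with separate groups. Its difference of -0.45 (-0.65 to -0.26, adjusted p = 0.0141) held whichever array was left out. Kcnf1, a silent potassium channel subunit, rose in rat, with effects of 0.03 ± 0.09 in mouse and 0.77 ± 0.13 in rat and a difference of -0.74 (-1.07 to -0.41, adjusted p = 0.0184), lost without rat pMCAO replicates 1 or 3 or rat sham replicates 2 or 3 (adjusted p 0.0518 to 0.0659).

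Differences were called for single members of other neuronal lists. Of 11 interneuron markers 1 was called above 0, Htr3a, and 2 below 0, Pvalb and Slc32a1. Slc32a1, the vesicular GABA transporter, was named after its values were seen, had -0.17 ± 0.07 in mouse and 0.26 ± 0.07 in rat and -0.42 (-0.62 to -0.22, adjusted p = 0.0218), and did not hold in every fit that left out 1 array. Htr3a, a serotonin-gated channel of interneurons, had 0.24 ± 0.06 in mouse and -0.38 ± 0.12 in rat and 0.62 (0.33 to 0.91, adjusted p = 0.0242), lost without rat pMCAO replicate 1 or rat sham replicates 1 or 2 (adjusted p 0.0547 to 0.071). Neurod1, a factor of excitatory neurons, had 0.08 ± 0.14 in mouse and -1.12 ± 0.23 in rat and 1.19 (0.64 to 1.75, adjusted p = 0.0225), lost without rat pMCAO replicate 3 or rat sham replicates 1 or 2 (adjusted p 0.0524 to 0.0798). It was the 1 called among 13 cortical excitatory markers, of which 4 were called down in mouse and 2 in rat. Cartpt, a neuropeptide precursor, had -0.11 ± 0.13 in mouse and 0.68 ± 0.13 in rat and -0.80 (-1.18 to -0.42, adjusted p = 0.0225), lost without mouse pMCAO replicate 3, mouse sham replicate 1, rat pMCAO replicate 3 or rat sham replicate 1 (adjusted p 0.0524 to 0.067). Gabrd, the delta subunit of GABA-A receptors, had -0.10 ± 0.07 in mouse and 0.29 ± 0.07 in rat and -0.39 (-0.60 to -0.17, adjusted p = 0.0471), lost in fits without any of 9 of 12 arrays (adjusted p 0.0678 to 0.127), and was the 1 called among 24 glutamate and GABA receptor genes.

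**Figure D4:**
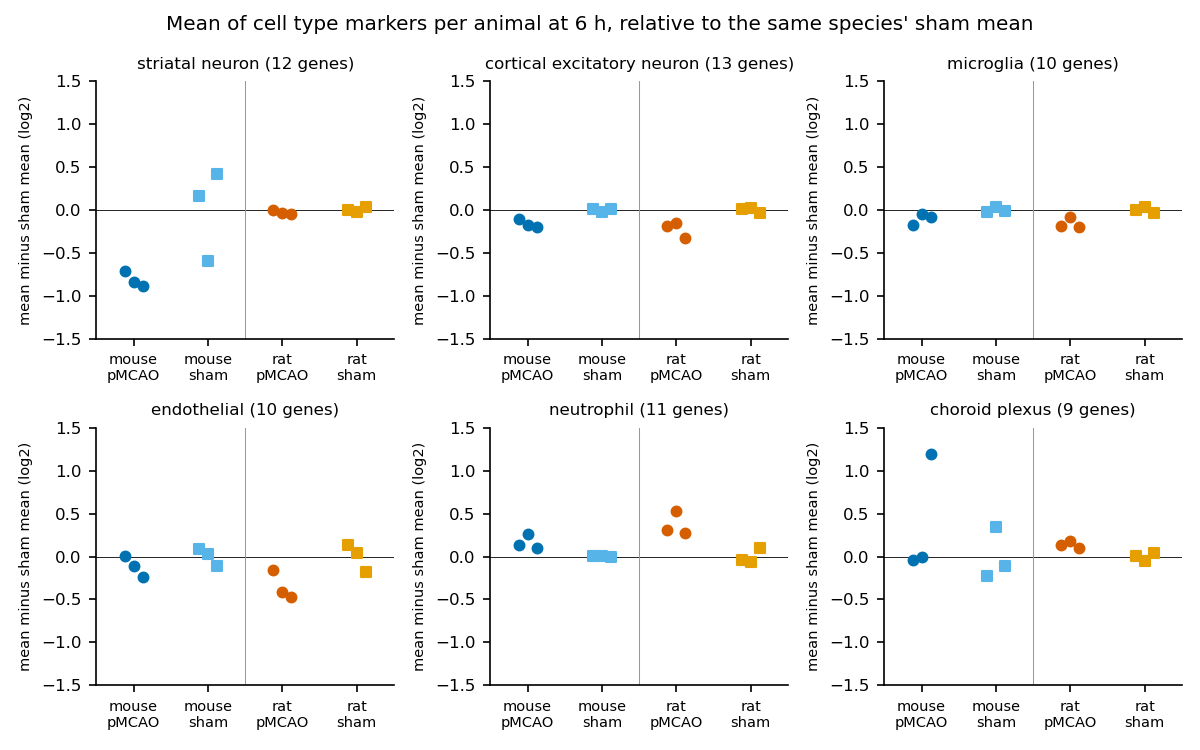
Mean of the markers of 6 cell types in each animal at 6 h, minus the sham mean of the same species (log2, points, 3 per group; pMCAO left of sham, mouse left of rat). Striatal markers lie low in the 3 occluded mice and in mouse sham replicate 2, and choroid plexus markers lie high in mouse pMCAO replicate 3.

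The 56 genes with a called difference and no call within either species all had effects of opposite sign, 27 higher in mouse and 29 higher in rat. The opposite signs are largely fixed by how this group is defined. With effects of the same sign, the larger one would exceed the difference and would mostly be called itself. Their differences were mostly small, with a median size of 0.52 and 2 of 56 at 1 or more. Rasd2, a striatal GTP-binding protein, had effects of -0.49 ± 0.14 in mouse and 0.30 ± 0.09 in rat and a difference of -0.80 (-1.15 to -0.44, adjusted p = 0.0184), lost without mouse pMCAO replicate 3 or mouse sham replicates 1 or 3 (adjusted p 0.0552 to 0.0621). With the striatal marker covariate the Rasd2 difference was -0.33 (adjusted p = 0.511). Cfap53, a cilia protein, had 0.39 ± 0.13 in mouse and -0.39 ± 0.11 in rat and 0.78 (0.44 to 1.13, adjusted p = 0.0164). Zfp972, a zinc finger gene whose symbol match is uncertain, had 0.71 (0.39 to 1.02, adjusted p = 0.0164). Both calls held whichever array was left out. Both were lost in other settings, the 6 h arrays alone among them (adjusted p up to 0.288 for Cfap53 and 0.397 for Zfp972). Cdc42ep3 had -0.87 (-1.30 to -0.43, adjusted p = 0.0284), Ppp4r4 0.84 (0.38 to 1.30, adjusted p = 0.0462), Slc35g1 0.70 (0.34 to 1.07, adjusted p = 0.0328), the dopamine receptor Drd5 0.70 (0.34 to 1.06, adjusted p = 0.033) and Lce1m -0.69 (-1.05 to -0.32, adjusted p = 0.0386). Each of these 5 calls was lost in 7 to 11 of the 12 fits that left out an array (adjusted p 0.0502 to 0.129), and the match of Lce1m, of a skin gene family, is uncertain. Rora, a nuclear receptor of the circadian clock, had effects of -0.20 ± 0.07 in mouse and 0.31 ± 0.10 in rat and a difference of -0.51 (-0.77 to -0.25, adjusted p = 0.0288), lost without mouse pMCAO replicate 3, mouse sham replicate 1, rat pMCAO replicate 3 or rat sham replicates 2 or 3 (adjusted p 0.0614 to 0.0895).

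Further genes called in rat only or larger in rat lay outside these lists or joined them through another role. Nfil3, a bZIP repressor tied to the circadian clock and to immune cells, had values of 7.12, 7.36 and 7.26 in mouse pMCAO, against 6.87, 6.61 and 6.56 in mouse sham. Rats had 7.94, 7.08 and 7.94 after pMCAO, against 5.84, 6.07 and 5.79 after sham surgery. Both species had separate groups, with effects of 0.57 ± 0.10 in mouse and 1.75 ± 0.20 in rat and a difference of -1.19 (-1.66 to -0.71, adjusted p = 0.0127) that held whichever array was left out. Exph5, an effector of Rab27, had values of 7.43, 7.39 and 6.75 in mouse pMCAO, against 7.89, 7.62 and 7.63 in mouse sham. Rats had 7.94, 7.90 and 8.48 after pMCAO, against 7.14, 7.17 and 7.12 after sham surgery. Occluded mice lay below and occluded rats above their shams. The mouse effect did not pass its test, and the difference of -1.49 (-2.01 to -0.96, adjusted p = 0.00444) held whichever array was left out. Tuba1c, an alpha-tubulin, had 0.46 ± 0.17 in mouse and 1.87 ± 0.28 in rat and -1.41 (-2.10 to -0.73, adjusted p = 0.026), lost without mouse sham replicate 1, rat pMCAO replicate 1 or rat sham replicates 2 or 3 (adjusted p 0.0543 to 0.0777). Tuba1c belongs to a family of near-identical genes, so its probes may also read its relatives.

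**Figure D5:**
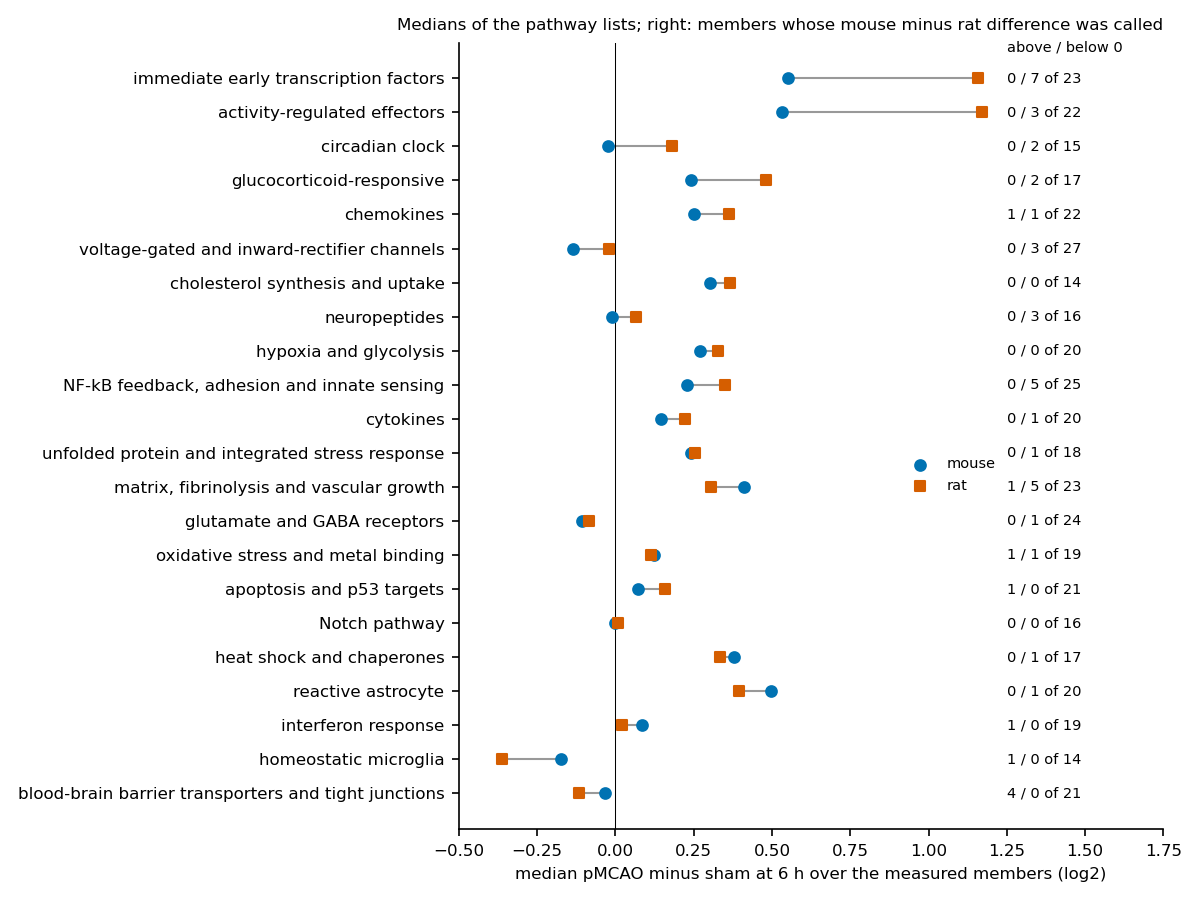
Median effect of each pathway list at 6 h over its measured members (log2) in mouse (circles) and rat (squares), with the number of members whose mouse minus rat difference was called above or below 0 at the right. The widest gaps are those of the immediate early factors and the activity-regulated effectors, 0.55 against 1.16 and 0.53 against 1.17 in mouse against rat.

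Some lists had few or no called differences. Cholesterol synthesis and uptake genes were called up in 3 of 14 cases in mouse and 6 in rat (3.71% and 3.2% of all genes), with medians of 0.30 in mouse and 0.37 in rat and 0 called differences. The Notch list had 1 of 16 members called up and 1 called down in each species, near the shares of all genes (3.71% up and 4.88% down in mouse, 3.2% up and 4.11% down in rat), also with 0 called differences. Reactive astrocyte genes were called up in 9 of 20 cases in mouse and 6 in rat, with medians of 0.50 in mouse and 0.40 in rat, and their 1 called difference was Timp1. In a simulation of 14204 genes with independent noise for each gene, 47.8% of mouse minus rat differences of 0.5 were recovered. The shares were 89.6% for differences of 1 and 100% for those of 2. A difference of 0.5 could thus go uncalled at this number of animals. Shifts shared by many genes were not simulated, so these shares need not hold for the real arrays.

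At 2 h the differences of the same genes were mostly small. Of the 323 genes, 194 (60.1%) had a 2 h difference of the same sign, against 53.4% of all matched genes, and their median size was 0.09 at 2 h and 0.62 at 6 h. The 323 genes were chosen by their difference at 6 h, so a smaller size at 2 h was partly fixed in advance. Genes without a called difference had a median size of 0.12 at 6 h. The differences at 2 h rest on other animals but were not tested here. For Fos the 2 h effects were 1.80 in mouse and 2.44 in rat, for Plat 0.06 in mouse and 0.94 in rat, for Abcg2 0.04 in mouse and -1.04 in rat, and for Cyp1b1 -0.06 in mouse and 0.15 in rat. Abcg2 and Plat thus had unlike effects at 2 h too, while the Cyp1b1 effects were near 0 in both species.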

How the data were processed

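RNA from 24 animals was measured on whole-transcript arrays, and the 12 arrays at 6 h are compared here. The titles gave the group and the replicate number, and a separate time label, which reads 2 h for every sample, was not used. The authors deposited, for each species, a table of log2 expression rounded to 2 decimals. The submitters' processing notes name oligo and limma, without versions. How background was corrected and arrays were normalized is not stated in the labels or files used, which could affect the size of effects. Detection calls were not used here, no gene is called absent, and the number of arrays limits the precision. Per the labels' protocols each animal gave 1 array, and the most alike arrays shared 2.54% of their values.

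The platform annotation gave 1 symbol to 23521 of 41345 mouse and 18511 of 36685 rat transcript clusters, several to 1814 and 575, and none to 16010 and 17599. Of the clusters of a symbol the one with the highest mean over the 12 arrays of the species was kept (808 of the 14204 matched symbols had several in mouse and 199 in rat). Where named genes had several, their effects had the same sign but could differ in size (Jun in rat 1.72 in the one used and 0.95 in the other, Drd5 in mouse 0.41 and 0.08, Cdc42ep3 in mouse -0.36 and -0.02). RefSeq's promoter table (GRCm38.p6) held 11193 of the 14204 symbols.

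Group means were fitted to all 12 arrays of a species (8 residual degrees of freedom) with limma 3.58.1 under R 4.3.3 and default eBayes. Species p-values were adjusted by Benjamini-Hochberg over 22180 mouse or 18166 rat genes. The difference of the 2 effects was tested two-sided against its standard error by the Welch-Satterthwaite approximation and adjusted over 14204 symbols, with a threshold of 0.05 throughout. Errors are standard errors and intervals are 95%. An exact permutation test of 3 against 3 reaches 0.1 at best, so the tests of single genes borrow their spread from all genes. On simulated arrays of 14204 genes, with noise drawn independently for each gene, 5.39% of the calls were false. The real arrays hold shifts shared by many genes, as in the striatal markers of the sham mice. The simulated share need not hold for them.

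The members and the 22 pathway and 16 cell type lists were chosen with earlier results of these data known, and lists share members. The naming rule took the 10 largest called differences of each group of calls, up to 4 called members per pathway list and 2 per cell type list, and the 10 genes called in both species with the largest smaller effect. It left out clone, predicted, olfactory, vomeronasal and small RNA symbols (those starting with Olr among them). Other genes were named as values after they were seen. Within a species, same-numbered pMCAO and sham arrays had correlated deviations of -0.01 to 0.05 in mouse and 0.02 to 0.07 in rat, so the numbers do not pair the animals and no block was used. The alternatives were 12 other settings and 12 fits that each left out 1 array.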

Additional observations from a re-analysis of the deposited data

Results flagged for a closer look

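The mouse minus rat difference passed its test for 323 of the 14204 matched genes, and the 10 largest in each group of calls under the naming rule, which left Olr1 out, are given here on the log2 scale, as values. Among genes called in mouse only they were Ctla2a 1.44, Lyzl4 1.24, Adcy10 1.12, Cyp1b1 1.11, A2m 1.09, Klra2 1.07, Col10a1 1.05, Pld5 -1.03, Clhc1 1.02 and Sertm1 0.99. Among genes called in rat only they were Egr2 -2.29, Nr4a1 -1.79, Timp1 -1.75, Cited2 -1.73, Mt1 -1.69, Egr4 -1.59, Abcg2 1.56, Exph5 -1.49, Tuba1c -1.41 and Bmp4 1.39. Among genes called in both species they were Fos -2.29, Ccl4 -1.98, Junb -1.84, Fgl2 -1.44, Plat -1.32, Nfil3 -1.19, Sik1 -1.14, Slco1a4 1.07, Adamts9 -1.05 and Ppp1r15a -1.04. Among genes called in neither they were Penk -1.29, Pde10a -1.003, Cdc42ep3 -0.87, Ppp4r4 0.84, Rasd2 -0.80, Cfap53 0.78, Zfp972 0.71, Slc35g1 0.70, Drd5 0.70 and Lce1m -0.69. What flagged each was the test of the difference between the species.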

How the results depend on the processing

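The direction of every named called difference was the same in all 1577 values computed under the 24 alternatives, of which 467 missed the threshold. The steady direction was partly fixed in advance, because the genes were chosen for large differences in these same data. Settings such as trended and robust eBayes, the 6 h arrays alone and the size limit also reuse the same group means, so they cannot change a direction. Of 67 named called genes 30 kept the call whichever array was left out, and 7 kept it in every alternative that measured them. These were Cyp1b1, Cited2, Mt1, Abcg2, Ccl4, Plat and Ppp1r15a, of which Cyp1b1, Abcg2 and Ccl4 were not measured in the fit of bright genes alone. With the 6 h arrays alone 29 of the 67 kept the call, after quantile normalization 28 and in 1 joint fit 21. Some calls that held without any 1 array, such as those of Adcy10, Clhc1, Il18, Nfil3, Pvalb, Cfap53 and Zfp972, were lost in those settings. Counts of calls over all genes moved too. The number of called differences, 323 as reported, was 531 with trended and robust eBayes, 65 with the 6 h arrays alone, 200 with array weights, 63 after quantile normalization, 484 with bright genes alone, 37 in 1 joint fit, 45 with a size of at least 1 and 28 with the striatal covariate. In the same order of settings, genes called in mouse only (96) numbered 178, 12, 54, 12, 156, 11, 9 and 4, those called in rat only (153) 235, 39, 94, 38, 203, 16, 23 and 21, and those called in both with the larger effect in rat (18) 30, 4, 13, 4, 42, 8, 11 and 0. Effects were also scaled to a common root mean square, the rat one being 1.249 times the mouse one. Then 127 genes were called in mouse only, 102 in rat only and 12 in both with the larger scaled effect in rat. Mouse calls (1220) were 1986 with trended and robust eBayes, 173 with the 6 h arrays alone, 172 after quantile normalization, 1941 with bright genes and 33 with the striatal covariate. Rat calls (1038) were 321 with the 6 h arrays alone, 361 after quantile normalization and 1532 with trended and robust eBayes. Fits of the 6 h arrays alone have fewer samples to estimate the spread, and the causes of the other shifts were not tested. Leaving out 1 array gave 141 to 386 called differences, 443 to 1025 mouse calls and 487 to 1129 rat calls. Genes called in mouse only then numbered 45 to 103, in rat only 56 to 192, and in both with the larger effect in rat 8 to 34. With the replicate number as a block, although it does not pair the animals, there were 336 called differences, 457 mouse calls and 895 rat calls. Of the genes, 66 were called in mouse only, 144 in rat only and 13 in both with the larger effect in rat. For the numbers themselves, 3 of the 6 arrays compared correlated best with their own number. Median centring changed the all-gene median difference to 0.00 from 0.01 and gave 306 called differences.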

Other observations

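Genes outside the naming rule, chosen after their values were seen, added to both sides of the comparison. Olr1, the receptor for oxidised LDL on endothelium and macrophages, had the largest called difference of all, with effects of -0.10 ± 0.14 in mouse and 2.38 ± 0.26 in rat and a difference of -2.48 (-3.10 to -1.86, adjusted p = 0.000271); its symbol shares a prefix with rat olfactory receptors, which the rule left out. Other rat-only risers included Stc1, a secreted glycoprotein tied to calcium balance, with effects of 0.14 ± 0.15 in mouse and 1.52 ± 0.23 in rat and a difference of -1.38 (-1.96 to -0.80, adjusted p = 0.0135), and Sat1, which breaks down polyamines, with 0.34 ± 0.10 in mouse and 1.56 ± 0.11 in rat and -1.22 (-1.54 to -0.90, adjusted p = 0.000149). Tfpi2, a serine protease inhibitor of the matrix, had 0.14 ± 0.12 in mouse and 1.31 ± 0.13 in rat and -1.16 (-1.52 to -0.80, adjusted p = 0.0012), and Irs2, an adaptor of insulin signalling, had -0.02 ± 0.11 in mouse and 1.18 ± 0.20 in rat and -1.19 (-1.67 to -0.72, adjusted p = 0.0119).

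Among genes of myeloid cells, chosen in the same way, differences were called in both directions. Ly86 and Cd180, which encode the partners MD-1 and RP105 of a Toll-like receptor complex, had effects of 0.83 ± 0.09 in mouse and -0.11 ± 0.07 in rat and of 0.48 ± 0.08 in mouse and -0.49 ± 0.19 in rat. Their differences were 0.94 (0.70 to 1.17, adjusted p = 0.000126) and 0.97 (0.54 to 1.41, adjusted p = 0.0218). Gpr84, a medium-chain fatty acid receptor of activated microglia, had effects of 1.00 ± 0.14 in mouse and 0.09 ± 0.12 in rat and a difference of 0.91 (0.53 to 1.29, adjusted p = 0.0121), and C3ar1, the receptor for complement C3a, had 1.07 ± 0.09 in mouse and 0.32 ± 0.13 in rat and 0.76 (0.42 to 1.09, adjusted p = 0.0169). In the other direction Themis2 and Rac2, signalling proteins of leukocytes, had effects of -0.06 ± 0.09 in mouse and 0.79 ± 0.12 in rat and of -0.18 ± 0.08 in mouse and 0.50 ± 0.13 in rat, with differences of -0.85 (-1.16 to -0.54, adjusted p = 0.00673) and -0.68 (adjusted p = 0.0238). The calls of Olr1, Stc1, Sat1, Tfpi2, Irs2, Ly86, Gpr84 and Themis2 held whichever array was left out, and those of Cd180, C3ar1 and Rac2 did not hold in every such fit. The mean of 10 microglial markers was 7.18, 7.31 and 7.27 in mouse pMCAO, against 7.34, 7.39 and 7.34 in mouse sham, and 6.997, 7.11 and 6.99 in rat pMCAO, against 7.19, 7.23 and 7.15 in rat sham. It was lower in every occluded animal than in every sham animal of its species, but its members did not move together: 3 were called up in rat (C1qb, C1qc and Itgam) and 3 down (Gpr34, P2ry12 and Tmem119), against 0 up and 2 down in mouse.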
